A study of Mus musculus with 9 samples.

Results

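The nuclear genes for respiratory complexes II to V and for cytochrome c were followed in mouse osteoclasts, the multinucleated cells that resorb bone. They were the protein-coding genes Sdha to Sdhd, Cyc1 and Cycs together with every symbol that starts with Uqc, Cox4, Cox5, Cox6, Cox7, Cox8 or Atp5, with pseudogenes left out. The rule used symbols and no measured value. It found 53 gene IDs with 52 symbols among the 54532 IDs of the count table, of which 4 belong to complex II, 12 to complex III, 18 to complex IV, 18 to complex V and 1 encodes cytochrome c. Of these, 48 had enough reads to be tested. Atp5o is listed under 2 IDs, and the second (ENSMUSG00000116933) had 0 reads in every library.

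RNA was sequenced from 9 libraries of osteoclasts that had been differentiated in vitro out of non-adherent marrow cells, with 20 ng/ml of the growth factor M-CSF and 10 ng/ml of RANKL, the cytokine that induces osteoclasts; all were harvested on day 3. WT_CTR (3 libraries) is labelled wild-type and had no stimulus. KO_CTR (3 libraries) is labelled Acod1-deficient and had no stimulus either; Acod1 encodes the enzyme that forms itaconate from a citric acid cycle intermediate, and the labels used here do not say whether the deletion is whole-body. KO_4OI (3 libraries) carries the same genotype label and received 4-octyl-itaconate, a cell-permeable ester of itaconate, at 50 µM on day 1. No library of wild-type cells with the compound was analysed here, so in KO_4OI against WT_CTR genotype label and treatment cannot be told apart. Nothing in the labels ties a replicate to a mouse of its own, so p-values measure only how far these libraries spread, and that spread may be technical.

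Complex II, succinate dehydrogenase, oxidises succinate in the citric acid cycle and passes the electrons to ubiquinone; all its subunits are nuclear-encoded. Complex III hands electrons from ubiquinol to cytochrome c, complex IV passes them on to oxygen, and complex V uses the proton gradient so made to form ATP. Complexes III to V are built from nuclear and mitochondrial gene products together, and osteoclasts are known for their many mitochondria. Itaconate is known as an inhibitor of succinate dehydrogenase.

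The libraries held 24830149 to 35143629 counted reads. Reads of Acod1 numbered 24 to 55 in WT_CTR, 47 to 86 in KO_CTR and 131 to 168 in KO_4OI, so the targeted gene was not lower in the libraries labelled deficient; whether those reads come from outside a deleted part was not tested. Reads of Xist, which is transcribed from an inactive X chromosome, were found in WT_CTR replicate 2 and KO_4OI replicate 3 and numbered 0 in the other 7 libraries. KO_CTR replicate 2 stood apart on the second principal component, at -57.1 against -0.79 and 2.24 for the other KO_CTR libraries. WT_CTR was split on this component too, with replicate 3 at -2.15 against 37.4 and 31.7 for replicates 1 and 2. All 10 osteoclast markers examined fell in KO_4OI against KO_CTR (100%, beside 14.2% of all 14264 genes tested). Their summed level was 24274 to 25616 reads per 1e+06 counted reads (CPM) in WT_CTR. In KO_CTR it was 27396 to 33791 CPM and in KO_4OI 8939 to 11309 CPM. The summed level of 8 macrophage markers was 6188 to 7895 CPM in WT_CTR, 8344 to 11624 CPM in KO_CTR and 19897 to 26418 CPM in KO_4OI. In KO_4OI against KO_CTR 2 of those 8 rose, Lyz2 and Adgre1 (25%, beside 13.0% of all genes tested). Csf1r and Cd68 fell (25%, beside 14.2%). The log2 fold change was negative for 5 of the 8, with a median of -0.25. The sum weighs the most abundant genes most, and Lyz2 had the highest mean of the 8 in KO_CTR. No marker of either list was at 0 in all libraries. Neutrophil markers summed to 614 to 922 CPM in WT_CTR, 734 to 1170 CPM in KO_CTR and 933 to 1167 CPM in KO_4OI. Of the 8 neutrophil markers, 1 rose in KO_4OI against KO_CTR (12.5%, beside 13.0% of all genes tested). Against WT_CTR 3 of them rose (37.5%, beside 12.1%), and 0 fell in either comparison. T and NK cell markers summed to 1.16 to 2.54 CPM over the 9 libraries. B cell markers summed to 52.8 to 82.5 CPM in WT_CTR, 96.2 to 138 CPM in KO_CTR and 113 to 136 CPM in KO_4OI. Dendritic cell markers summed to 23.3 to 28.4 CPM, 45.5 to 50.8 CPM and 50.4 to 54.4 CPM in these groups. For both lists the WT_CTR sums lay below all others, and the sums carry no test. In KO_4OI against KO_CTR, 3 of the 5 dendritic cell markers fell (60%, beside 14.2% of all genes tested). Another 1 rose (20%, beside 13.0%), and the median log2 fold change of the 5 was -0.82. In the same comparison 0 of the 6 B cell markers were called. The part of these markers in the results below was not tested, and in bulk RNA fewer cells of a type and less RNA per cell cannot be told apart.

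With 4-octyl-itaconate, 44 of the 48 tested genes fell and 0 rose (KO_4OI against KO_CTR). That is 91.7% of them, beside 14.2% of all 14264 genes tested that fell and 13.0% that rose in the same comparison. The log2 fold change was negative for all 48 tested genes, with a median of -0.68 and a range from -1.52 to -0.09, while the median of all genes tested was 0.02. Calls here and below are those of edgeR's quasi-likelihood test at a threshold of 0.05, after Benjamini-Hochberg adjustment over all genes tested. For 46 of the 48 genes the 3 treated libraries all lay below the 3 untreated ones, which held for 19.6% of all genes tested, while 19.8% lay wholly higher. The genes together took 1.98%, 2.09% and 2.22% of all counted reads in the WT_CTR libraries and 2.11%, 2.34% and 2.27% in the KO_CTR libraries. In the KO_4OI libraries they took 1.33%, 1.26% and 1.36%, so the treated group did not overlap with either untreated group on this scale, which divides by all counted reads of a library.

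Of the 48 log2 fold changes, 36 lay between -1 and -0.5, 4 at -1 or below and 8 above -0.5, the last including the 4 genes without a call. By complex, 4 of 4 genes fell in complex II (median log2 fold change -0.82), 10 of 12 in complex III (-0.75), 14 of 14 in complex IV (-0.69) and 15 of 17 in complex V (-0.61). Cycs, the only gene for cytochrome c in the list, also fell (-0.55). Among the 43 tested structural subunits 42 fell (97.7%, beside 14.2% of all genes tested), with a median of -0.72. The 4 tested genes without a call were Atp5e, Atp5s, Uqcc2 and Uqcc3, of which only Atp5e encodes a structural subunit.

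**Figure D1:**
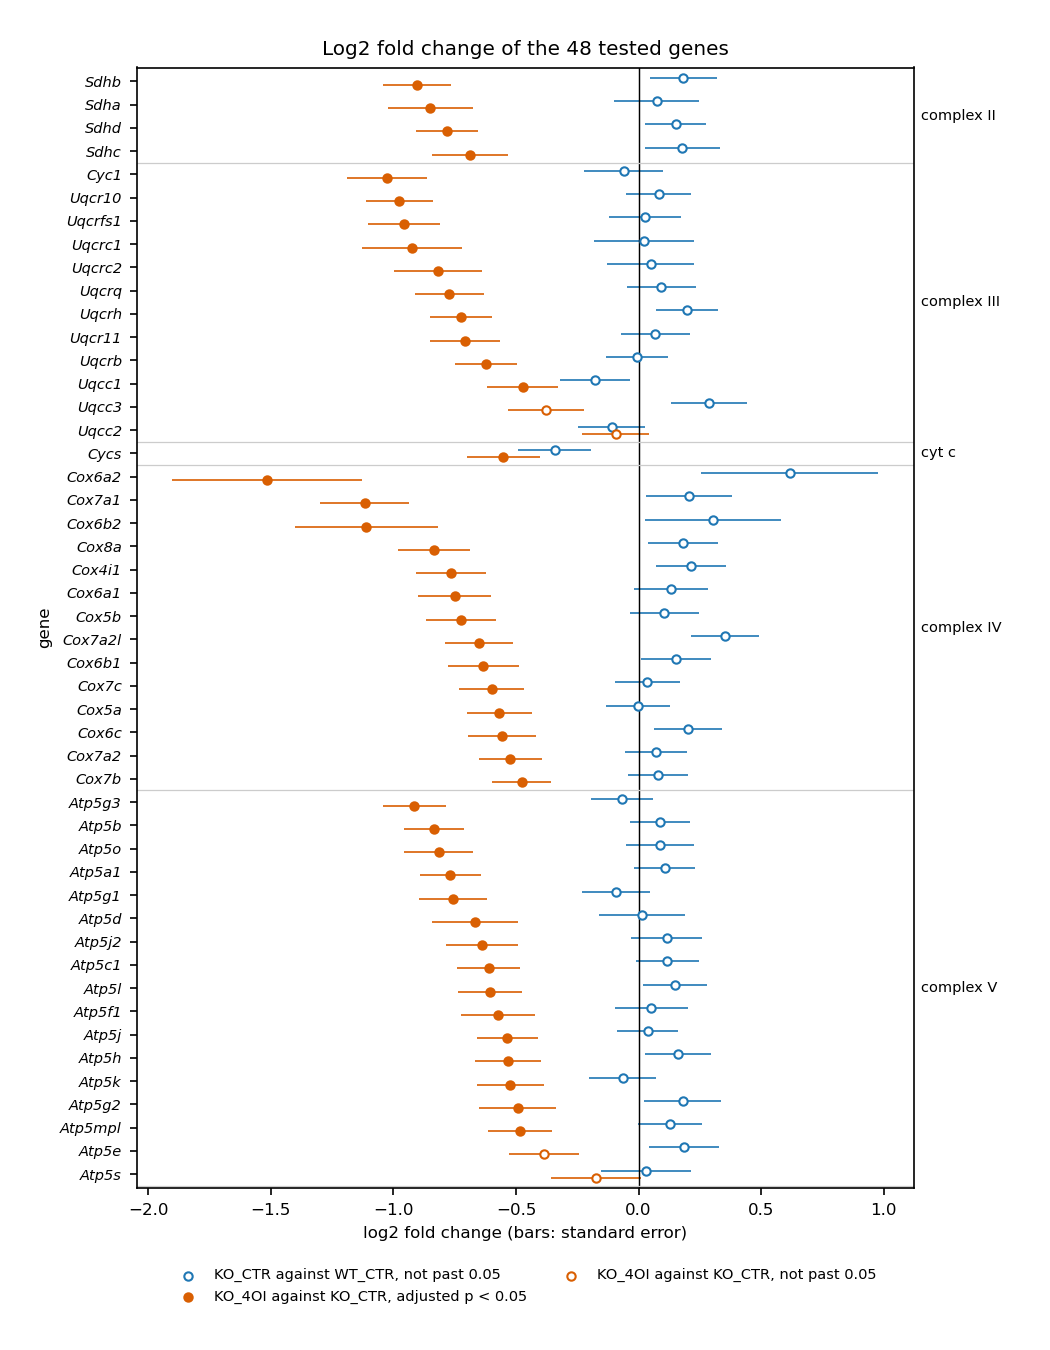
Log2 fold change (horizontal axis) of each of the 48 tested genes, grouped by complex, for KO_4OI against KO_CTR (orange) and KO_CTR against WT_CTR (blue); bars are standard errors and filled points passed an adjusted p of 0.05. All 48 orange points lie left of 0 and 44 are filled, while no blue point is filled.

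Summed levels show the same contrast in each library. Complex II summed to 1924, 2080 and 2024 CPM in WT_CTR, 2025, 2175 and 2413 CPM in KO_CTR and 1247, 1269 and 1237 CPM in KO_4OI. Complex III summed to 3312 to 3695 CPM in WT_CTR, 3305 to 3969 CPM in KO_CTR and 1888 to 2190 CPM in KO_4OI. Complex IV summed to 4611 to 5638 CPM in WT_CTR, 4942 to 6422 CPM in KO_CTR and 3416 to 3706 CPM in KO_4OI. In each of these complexes the treated libraries lay below all 6 untreated ones. Complex V, which holds the most abundant members, summed to 9425 to 10600 CPM in WT_CTR, 9423 to 11471 CPM in KO_CTR and 5984 to 6791 CPM in KO_4OI. The ratio of the mean in KO_4OI to the mean in KO_CTR was 0.568 for complex II, 0.566 for complex III, 0.624 for complex IV and 0.610 for complex V. These sums are a description and carry no test.

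**Figure D2:**
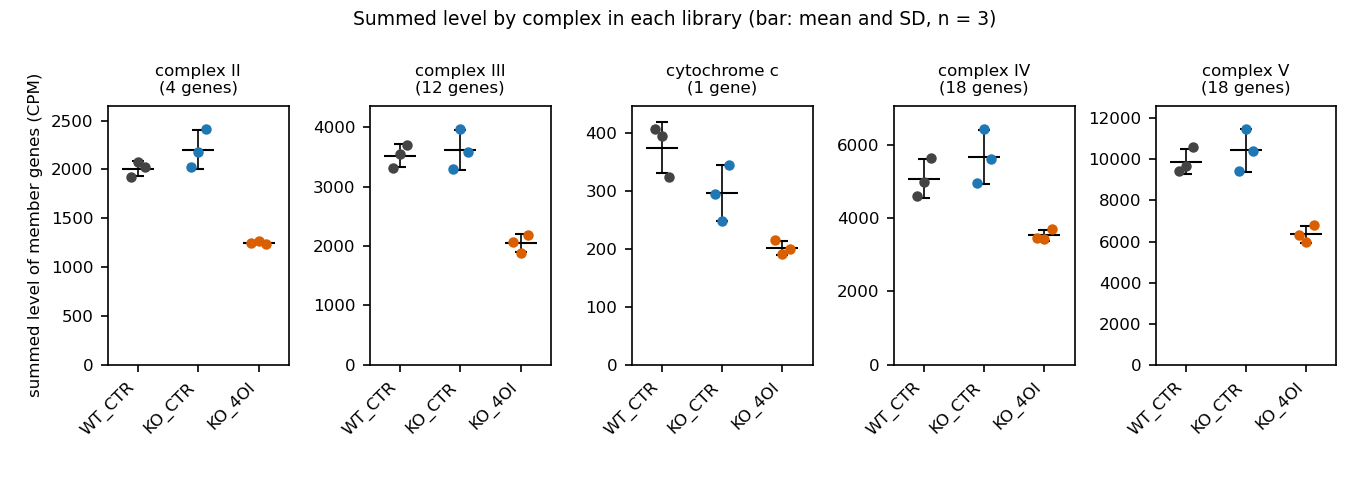
Summed level in CPM (vertical axis, starting at 0) of the member genes of each complex in the 9 libraries, with the mean and SD of each group of 3. The KO_4OI points lie below every untreated point in all 5 panels.

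Promoter sequence is shown because promoters of respiratory genes are known for sites of a few factors: NRF1, ETS factors such as GABPA, YY1 and the oestrogen-related receptors (ERR). Whether such sites bear on the fall was not tested. The RefSeq promoter table on GRCm38.p6 held a window from 250 bases before to 50 bases after the start for 38 of the 48 tested genes, all but Atp5a1, Atp5mpl, Cox4i1, Cox6a2, Cox6c, Cyc1, Sdhc, Uqcrb, Uqcrc2 and Uqcrq. The following 4 windows are among the 14 of 38 that hold a match to at least 1 of the 4 motifs. Cut to 150 bases before and 10 after the start and written along the gene's strand, they show in capitals the matches to NRF1 (GCGCATGCG), ETS (ACTTCCGG) and ERR (TCAAGGTCA), each searched on both strands. Uqcr11 carries an ETS and an NRF1 match and lies on the minus strand at chr10:80406812-80406971. Cox8a carries an ETS match (minus strand, chr19:7217607-7217766), Atp5g3 an ERR match (minus strand, chr2:73911317-73911476) and Cycs an NRF1 match (minus strand, chr6:50566560-50566719). Another ETS match of Cox8a, at position 32 after the start, lies in the window searched but past the end of the printed stretch.
Uqcr11: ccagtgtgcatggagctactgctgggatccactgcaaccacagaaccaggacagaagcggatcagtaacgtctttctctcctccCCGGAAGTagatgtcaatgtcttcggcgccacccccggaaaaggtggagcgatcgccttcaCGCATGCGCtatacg
Cox8a: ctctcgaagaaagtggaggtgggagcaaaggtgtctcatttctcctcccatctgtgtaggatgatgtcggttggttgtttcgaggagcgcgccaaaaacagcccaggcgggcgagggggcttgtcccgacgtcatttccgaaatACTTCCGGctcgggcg
Atp5g3: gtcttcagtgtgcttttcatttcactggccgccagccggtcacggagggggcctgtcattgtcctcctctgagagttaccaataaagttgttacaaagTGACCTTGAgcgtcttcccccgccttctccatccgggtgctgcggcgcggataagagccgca
Cycs: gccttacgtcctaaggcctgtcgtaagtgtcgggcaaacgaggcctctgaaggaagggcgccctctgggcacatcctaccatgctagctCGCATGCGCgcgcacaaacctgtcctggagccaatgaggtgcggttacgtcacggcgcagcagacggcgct

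The NRF1 letters occurred in 7 of the 38 windows (Atp5g2, Atp5k, Atp5l, Cox6a1, Cycs, Uqcr11 and Uqcrc1), or 18.4%, against 1.95% of the windows of 27025 genes. ETS letters occurred in 4 (Atp5h, Cox8a, Uqcr11 and Uqcrh), or 10.5% against 4.31%. ERR letters occurred in Atp5g3 and Sdhd, 5.26% against 0.466%, and the YY1 letters AAGATGGCG in Atp5j and Atp5j2, 5.26% against 1.64%. At least 1 of these motifs was found in 14 of 38 windows, 36.8% against 7.93% of the 27025 genes. Those 27025 were not limited to the genes tested here, so these shares do not compare genes of like level. The core letters of the antioxidant response element, TGACNNNGC, occurred in 3 windows (Atp5o, Cox5b and Uqcc1), 7.89% against 14.0%. On opposite strands NRF1 matches can overlap each other; a match describes letters, not a bound site, and no factor's binding was measured.

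All 4 genes of complex II fell. Sdhb, the iron-sulfur subunit that carries electrons away from the flavin, stood at 415, 444 and 504 CPM in WT_CTR, 432, 571 and 544 CPM in KO_CTR and 281, 267 and 279 CPM in KO_4OI. All treated libraries were lower than every untreated one, and the log2 fold change against KO_CTR was -0.90 ± 0.14 (SE; adjusted p = 0.000333). Sdhd, a membrane anchor, stood at 377, 415 and 438 CPM in WT_CTR, 405, 489 and 472 CPM in KO_CTR and 257, 267 and 272 CPM in KO_4OI, again with no overlap (-0.78 ± 0.13, adjusted p = 0.000491). Sdha, the flavoprotein that oxidises succinate, stood at 814, 873 and 688 CPM in WT_CTR, 836, 630 and 1032 CPM in KO_CTR and 473, 503 and 409 CPM in KO_4OI. The KO_CTR libraries of Sdha spread widely, with replicate 2 the lowest, yet the groups did not overlap (-0.85 ± 0.17, adjusted p = 0.0026). Sdhc, the other anchor, fell by 0.69 on the log2 scale (adjusted p = 0.00477). Of the 4 assembly factors of complex II listed beside it, 1 fell (25%, beside 14.2% of all genes tested). It was Sdhaf1, which helps mature the iron-sulfur subunit, at -1.07 ± 0.24 (adjusted p = 0.00443) from a low level of 5.71 to 8.96 CPM in KO_CTR.

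In complex III the 9 structural subunits fell and 1 of the 3 assembly factors of the Uqcc series did. Of all genes tested, 14.2% fell. Uqcr10, a small supernumerary subunit, stood at 303, 345 and 368 CPM in WT_CTR, 311, 382 and 381 CPM in KO_CTR and 178, 177 and 192 CPM in KO_4OI. Treated libraries were tightly grouped below the untreated ones (-0.98 ± 0.14, adjusted p = 0.000154). Cyc1, cytochrome c1, stood at 461, 483 and 532 CPM in WT_CTR, 435, 575 and 406 CPM in KO_CTR and 232, 195 and 268 CPM in KO_4OI. Its log2 fold change of -1.03 ± 0.16 (adjusted p = 0.000408) was the most negative among genes of this complex, and the groups did not overlap. Uqcrfs1, the Rieske iron-sulfur protein, stood at 404, 454 and 446 CPM in WT_CTR, 423, 519 and 386 CPM in KO_CTR and 252, 196 and 237 CPM in KO_4OI, without overlap (-0.96 ± 0.15, adjusted p = 0.000351). The core proteins Uqcrc1 (-0.93) and Uqcrc2 (-0.82), the hinge protein Uqcrh (-0.72) and the small subunits Uqcrq (-0.77), Uqcr11 (-0.71) and Uqcrb (-0.62) fell as well, with adjusted p-values of 0.000908 to 0.00439.

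The Uqcc genes encode factors needed to assemble cytochrome b into complex III. Uqcc1 fell by 0.47 on the log2 scale (adjusted p = 0.0259). It did not pass without KO_CTR replicate 1 (adjusted p = 0.055) or 3 (0.0763), nor without KO_4OI replicate 1 (0.0962) or 2 (0.109). Uqcc2 stood at 60.1, 70.5 and 70.1 CPM in KO_CTR and 63.2, 57.9 and 67.1 CPM in KO_4OI, so the groups overlapped (-0.09 ± 0.14, adjusted p = 0.658). Uqcc3 stood at 39.5, 49.6 and 46.4 CPM in KO_CTR and 35.1, 33.1 and 36.0 CPM in KO_4OI; the groups did not overlap, yet the adjusted p was 0.0893 (-0.38 ± 0.16). Outside the symbol rule, 1 of 3 further complex III factors fell (33.3%, beside 14.2% of all genes tested). It was Lyrm7, a chaperone of the Rieske protein, at -0.72 ± 0.23 (adjusted p = 0.0359) and under 5 CPM in every library.

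Cycs, the mobile carrier between complexes III and IV whose promoter with its NRF1 match is printed above, stood at 406, 394 and 324 CPM in WT_CTR, 295, 248 and 344 CPM in KO_CTR and 215, 191 and 199 CPM in KO_4OI. The treated libraries were the lowest, and KO_CTR lay mostly between them and WT_CTR. Its log2 fold change was -0.55 ± 0.15 against KO_CTR (adjusted p = 0.0145) and -0.89 against WT_CTR (adjusted p = 0.00069). The former call was lost without KO_CTR replicate 3 (adjusted p = 0.0535) or without KO_4OI replicate 2 (0.0554). Between KO_CTR and WT_CTR the value was -0.34 (adjusted p = 0.259) and the groups overlapped.

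Complex IV, cytochrome c oxidase, draws its catalytic core from mitochondrial DNA, and the nuclear genes encode the subunits around that core. All 14 tested genes fell. Cox8a, whose promoter with an ETS match is shown above, stood at 502, 574 and 657 CPM in WT_CTR, 563, 763 and 640 CPM in KO_CTR and 356, 368 and 378 CPM in KO_4OI, a clear separation (-0.84 ± 0.15, adjusted p = 0.00085). Cox4i1, the regulatory subunit that binds ATP, was the most abundant gene of the complex, at 874, 903 and 1089 CPM in WT_CTR, 960, 1303 and 1062 CPM in KO_CTR and 641, 616 and 699 CPM in KO_4OI. Every treated value was lower than every untreated one (-0.77 ± 0.14, adjusted p = 0.00145). Cox5a (-0.57), Cox5b (-0.73), Cox6c (-0.56), Cox7b (-0.48) and Cox7c (-0.60), each the only tested gene for its subunit, fell with adjusted p-values of 0.00193 to 0.0102; the call of Cox7b was lost without KO_4OI replicate 1 (0.0523). Reads of Vps13b, which overlaps Cox6c on the other strand, amounted to 9.99% of those of Cox6c; the strand setting of the counting is not given in the sources used here.

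Several complex IV subunits have a second gene that is best known from heart and skeletal muscle or testis. Cox7a1, the heart and muscle form of its subunit, stood at 15.6, 20.3 and 20.0 CPM in WT_CTR, 17.4, 25.0 and 22.1 CPM in KO_CTR and 9.98, 9.30 and 10.4 CPM in KO_4OI. It fell by 1.12 on the log2 scale (SE 0.18, adjusted p = 0.000476) without overlap of groups. Its widely expressed counterpart Cox7a2 stood at 208, 230 and 225 CPM in WT_CTR, 206, 244 and 246 CPM in KO_CTR and 163, 155 and 167 CPM in KO_4OI (-0.52 ± 0.13, adjusted p = 0.00791). Cox7a2l, the related factor that joins complexes III and IV into supercomplexes, stood at 335, 376 and 420 CPM in WT_CTR, 416, 539 and 492 CPM in KO_CTR and 291, 324 and 305 CPM in KO_4OI (-0.65 ± 0.14, adjusted p = 0.00342). Its treated libraries lay below WT_CTR by less than below KO_CTR, and against WT_CTR it was not called (-0.30, adjusted p = 0.146).

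The muscle form Cox6a2 was near the limit of detection, at 0.695, 1.88 and 1.91 CPM in WT_CTR, 1.85, 3.01 and 2.13 CPM in KO_CTR and 0.55, 0.821 and 1.06 CPM in KO_4OI, which is 15 to 72 reads per library. Its log2 fold change of -1.52 ± 0.39 (adjusted p = 0.0107) was the most negative of all, with no overlap, and rested on few reads; reads of Itgad, which overlaps it on the other strand, amounted to 13.2% of its own. Its abundant counterpart Cox6a1 stood at 633, 654 and 808 CPM in WT_CTR, 674, 897 and 726 CPM in KO_CTR and 447, 414 and 504 CPM in KO_4OI (-0.75 ± 0.15, adjusted p = 0.00228). Cox6b2, best known from testis, stood at 2.16, 1.81 and 1.80 CPM in WT_CTR, 2.25, 2.93 and 1.95 CPM in KO_CTR and 0.954, 0.784 and 1.55 CPM in KO_4OI (-1.11 ± 0.29, adjusted p = 0.0124). Cox6b1 stood at 392, 436 and 504 CPM in WT_CTR, 423, 559 and 499 CPM in KO_CTR and 299, 310 and 346 CPM in KO_4OI (-0.63 ± 0.15, adjusted p = 0.00544). In both pairs the low and the abundant gene fell, and their treated and KO_CTR libraries did not overlap. Without KO_4OI replicate 1 the calls of Cox6a2 (adjusted p = 0.0551) and Cox6b2 (0.0592) were lost, and Cox6b2 was lost also without KO_4OI replicate 2 (0.0566).

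The remaining forms were hardly seen. Cox4i2, the lung form known to respond to low oxygen, had 0 to 2 reads per library, and Cox8b 0 to 1. Cox7b2 and Cox8c had 0 reads in all 9 libraries, which allows up to 0.0118 CPM over the pooled reads (3 reads, counting error only).

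Among the factors that assemble complex IV, 9 of 23 tested fell (39.1%, beside 14.2% of all genes tested) and 0 rose, with a median of -0.35. The smallest p-values were those of Cox15, which makes haem A (-0.64, adjusted p = 0.00215), Coa6, a copper chaperone (-0.75, 0.00335), Higd2a (-0.83, 0.00341) and Cox14 (-0.72, 0.00438). Cox10, Cox11, Coa4, Taco1 and Sco1 fell too. Surf1 (-0.25, adjusted p = 0.289), Coa3 (-0.35, 0.123) and Cox17 (-0.27, 0.454) were among those without a call. Ndufa4, now counted as a subunit of complex IV despite its name, stood at 401, 468 and 503 CPM in KO_CTR and 300, 298 and 292 CPM in KO_4OI (-0.62 ± 0.13, adjusted p = 0.00229).

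**Figure D3:**
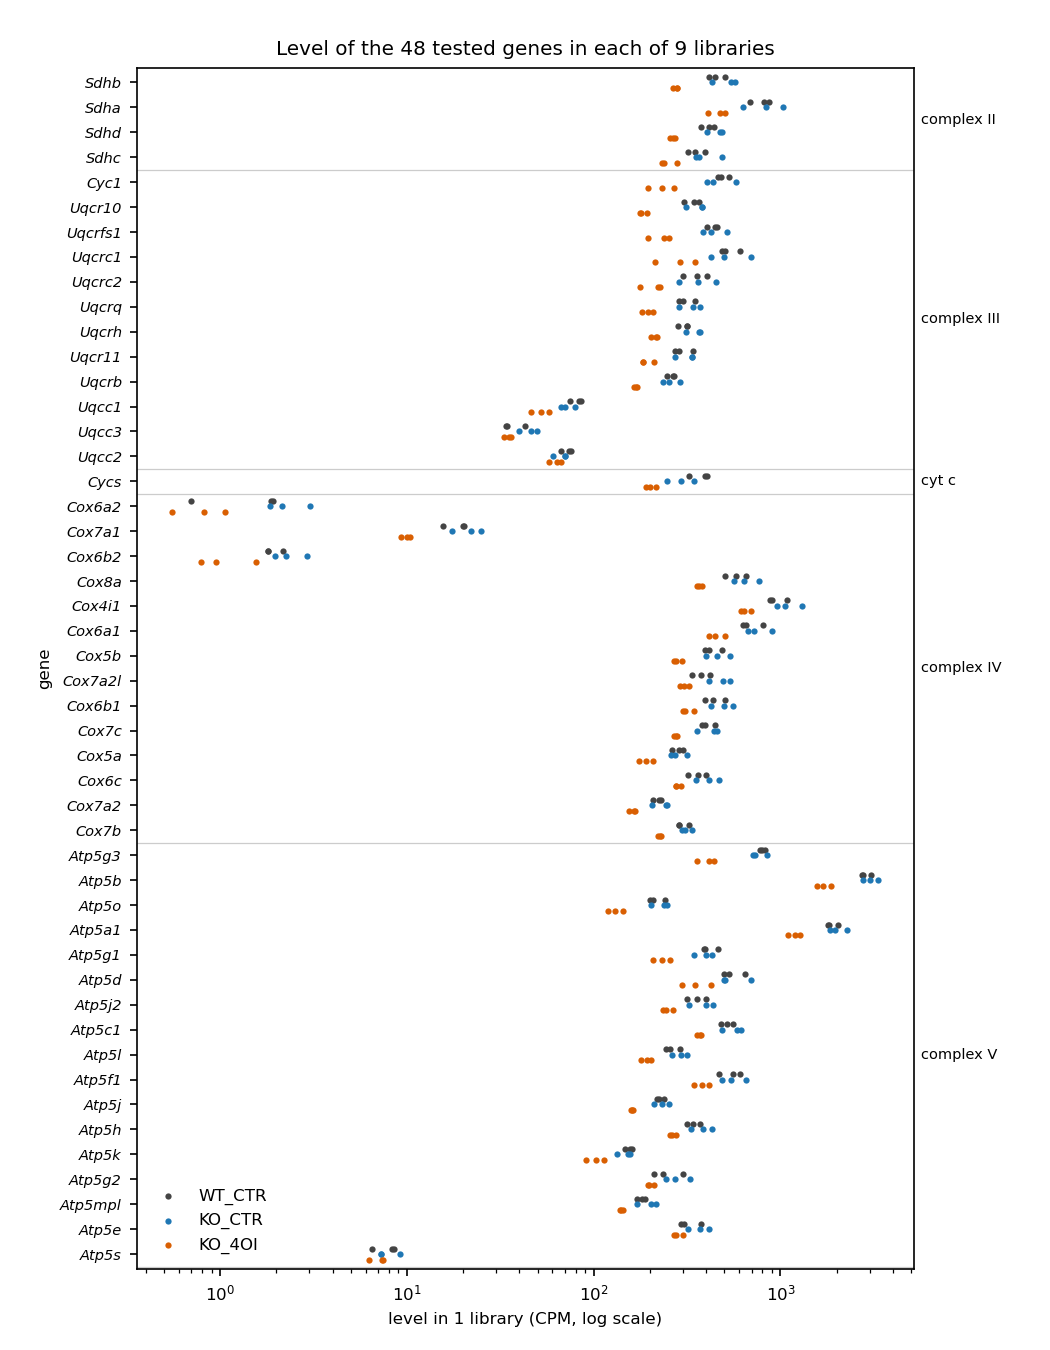
Level of each tested gene in each library (horizontal axis, CPM on a log scale) for WT_CTR (grey), KO_CTR (blue) and KO_4OI (orange). The orange points lie left of the blue ones for 46 of 48 genes, and Cox6a2, Cox6b2, Atp5s and Cox7a1 have the lowest levels.

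Complex V, ATP synthase, has a catalytic F1 head, a stator, a membrane part and a rotating ring of subunit c. In the head, Atp5b, the catalytic beta subunit and the most abundant gene of the list, stood at 2781, 2726 and 3061 CPM in WT_CTR, 2757, 3337 and 3014 CPM in KO_CTR and 1685, 1566 and 1856 CPM in KO_4OI. No treated library came near an untreated one (-0.83 ± 0.12, adjusted p = 0.000236). Atp5a1, the alpha subunit that alternates with beta, stood at 1805, 1813 and 2030 CPM in WT_CTR, 1851, 2285 and 1948 CPM in KO_CTR and 1194, 1102 and 1278 CPM in KO_4OI, likewise apart (-0.77 ± 0.13, adjusted p = 0.00052). The central stalk subunits gamma (Atp5c1, -0.61) and delta (Atp5d, -0.67) fell, the latter not without KO_4OI replicate 1 (adjusted p = 0.0525) or 2 (0.0589). Atp5e, the epsilon subunit of the same stalk, stood at 319, 415 and 373 CPM in KO_CTR and 270.4, 275 and 300.5 CPM in KO_4OI; the groups did not overlap, but the adjusted p was 0.0611 (-0.39 ± 0.14).

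Of the stator, Atp5o, which links it to the head, fell by 0.81 on the log2 scale (adjusted p = 0.000797), and Atp5f1 (-0.57), Atp5h (-0.53) and Atp5j (-0.54) fell with adjusted p-values of 0.00601 to 0.012. Atp5j shares exon sequence on the other strand with Gabpa, whose reads amounted to 26.6% of those of Atp5j; Gabpa itself had no call (0.21, adjusted p = 0.543). In the membrane part Atp5j2 (-0.64), Atp5l (-0.61), Atp5k (-0.52) and Atp5mpl (-0.48) fell, with adjusted p-values of 0.00381 to 0.0138; without KO_4OI replicate 1 the calls of Atp5k (0.0867) and Atp5mpl (0.0687) were lost. Atp5s, a coupling factor that is not a structural subunit, was low, at 7.27, 7.24 and 9.22 CPM in KO_CTR and 6.24, 7.43 and 7.38 CPM in KO_4OI, and the groups overlapped (-0.17 ± 0.18, adjusted p = 0.527). Of 4 assembly factors of complex V outside the rule, 2 fell (50%, beside 14.2% of all genes tested) and 0 rose. Usmg5, a further membrane subunit whose symbol falls outside the rule, fell by 0.69 (adjusted p = 0.00104). Atpif1, the protein that inhibits ATP hydrolysis by complex V, stood at 155, 197 and 196 CPM in KO_CTR and 207, 206 and 212 CPM in KO_4OI (0.19 ± 0.13, adjusted p = 0.318), with no treated library below an untreated one. Usmg5 and Atpif1 were added after the values of the other genes had been seen.

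Subunit c is encoded by 3 genes, Atp5g1, Atp5g2 and Atp5g3, whose proteins differ in the targeting sequence that is removed on import. Atp5g3, whose promoter with an ERR match is shown above, stood at 772, 796 and 829 CPM in WT_CTR, 727, 849 and 714 CPM in KO_CTR and 415, 358 and 441 CPM in KO_4OI (-0.92 ± 0.13, adjusted p = 0.000168). Atp5g1 stood at 390, 396 and 464 CPM in WT_CTR, 345, 429 and 400 CPM in KO_CTR and 231, 207 and 256 CPM in KO_4OI (-0.76 ± 0.14, adjusted p = 0.00131). Both were without overlap of treated and untreated libraries. Atp5g2 stood at 210.5, 235 and 301 CPM in WT_CTR, 244, 327 and 273 CPM in KO_CTR and 194, 197 and 209 CPM in KO_4OI (-0.49 ± 0.16, adjusted p = 0.0337). Its call was lost without any one of 6 libraries, namely WT_CTR replicate 2, KO_CTR replicates 2 and 3 and each KO_4OI library, with adjusted p-values of 0.0512 to 0.121.

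Shares within the subunit c pool gave no difference past the threshold. Per kb of transcript, Atp5g2 made up 26.9% ± 1.11 (SD, n = 3) of the 3 genes in KO_CTR and 32.3% ± 1.87 (n = 3) in KO_4OI, and Atp5g3 45.3% ± 1.88 and 40.2% ± 1.30. The share of Atp5g1 was 27.8% ± 1.33 and 27.6% ± 0.709. In WT_CTR the shares were 29.3% ± 0.515 for Atp5g1, 23.5% ± 2.27 for Atp5g2 and 47.1% ± 2.47 for Atp5g3 (SD, n = 3), so the mean share of Atp5g2 was 3.41 percentage points higher in KO_CTR than in WT_CTR and 5.35 points higher in KO_4OI than in KO_CTR. The 3 KO_4OI shares of Atp5g2 were all above the KO_CTR ones and those of Atp5g3 all below (exact two-sided permutation test, p = 0.1 for each, the smallest that 3 libraries against 3 can give; adjusted p = 0.286 over the 20 shares tested). The design cannot reach 0.05. Cox7a1 took 6.36% ± 0.419 of its set of 3 in KO_CTR and 4.53% ± 0.264 in KO_4OI, with the same exact p of 0.1. Between WT_CTR and KO_CTR the share of Cox7a2l was 47.7% ± 1.89 and 52.4% ± 1.07 (n = 3 each, exact permutation p = 0.1, adjusted 0.286). Cox6a2 and Cox6b2 made up less than 1% of their pairs in every group mean. The level of a share depends on the transcript length used: that of Atp5g1 in KO_CTR was 5.46% with the longest principal transcript.

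**Figure D4:**
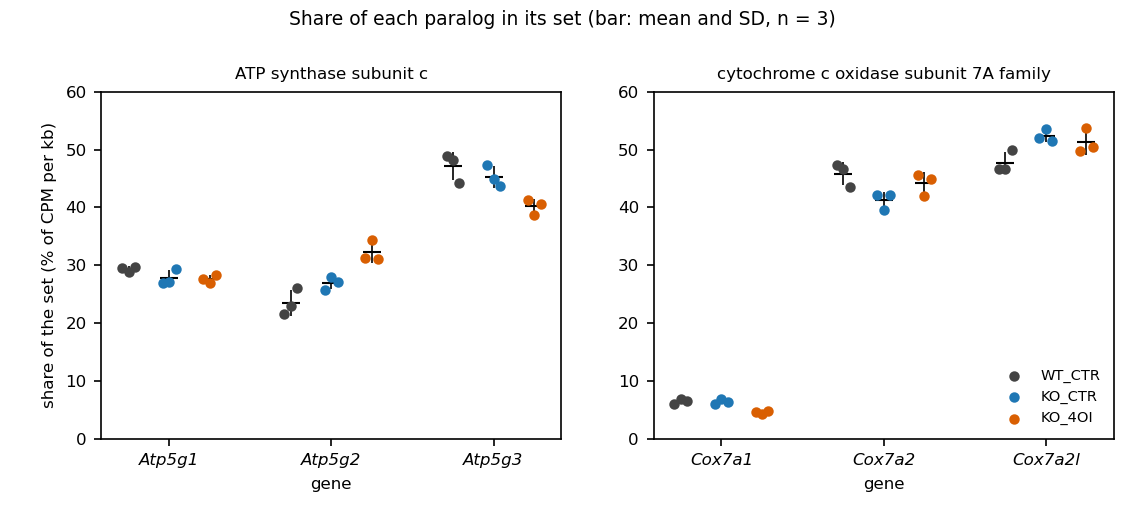
Share of each gene in its set (vertical axis, percent of CPM per kb) in each library, with the mean and SD of 3 libraries, for the subunit c genes and the 7A family. Orange KO_4OI points lie above the others for Atp5g2 and below them for Atp5g3 and Cox7a1.

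Levels can be compared between genes only per length. On CPM per kb of the shortest principal transcript, the structural subunits of complex II ranged in KO_CTR from 126 for Sdhc to 451 for Sdhb. Those of complex III ranged from 194 for Uqcrc2 to 826 for Uqcr10, those of complex IV from 3.43 for Cox6a2 to 1488 for Cox4i1, and those of complex V from 274 for Atp5o to 1584 for Atp5b. In KO_4OI the corresponding lowest levels were 78.5 for Sdhc, 110 for Uqcrc2 and 156 for Atp5o, and Sdhb (241), Cox4i1 (875) and Atp5b (889) were again the highest of their complexes. In complex III Uqcr10 (826 ± 94.0) and Uqcrq (822 ± 106, SD, n = 3 each) were level in KO_CTR, and stood at 420 ± 19.1 and 481 ± 33.7 in KO_4OI; the level of Uqcrq rests on its shortest principal transcript of 405 bases, where the longest has 1521. The median log2 fold change in KO_4OI against KO_CTR was -0.61 for the 25 genes with a transcript of at most 680 bases. It was -0.77 for the 23 longer ones. Over all protein-coding genes tested the medians of these length classes were -0.02 (1587 genes) and 0.05 (10752 genes).

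Between the untreated groups, 0 of the 48 genes were called by edgeR (KO_CTR against WT_CTR), where 0.470% of all genes tested rose and 0.0491% fell. At an unadjusted p under 0.05 there were 2, Cycs (-0.34) and Cox7a2l (0.35, adjusted p = 0.217). DESeq2 and limma-trend called 0 as well, with 1 and 2 genes at an unadjusted p under 0.05. The median log2 fold change was 0.09, beside -0.03 for all genes tested, and the range ran from -0.34 for Cycs to 0.62 for Cox6a2. For no gene did the groups lie apart, while 10.2% of all genes tested lay wholly higher and 9.56% wholly lower. The standard errors of these values ran from 0.12 for Cox7b to 0.36 for Cox6a2. By complex the medians were 0.16 in complex II, 0.04 in complex III, 0.17 in complex IV and 0.09 in complex V.

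Against WT_CTR, the treated libraries gave 37 of 48 genes that fell and 0 that rose (77.1%, beside 12.2% of all genes tested that fell and 12.1% that rose), with a median of -0.62. By complex these were 4 of 4 in complex II, 10 of 12 in complex III, 10 of 14 in complex IV, 12 of 17 in complex V and Cycs. The treated libraries lay wholly below WT_CTR for 43 genes, as did 22.1% of all genes tested, while 19.8% of all genes lay wholly above. This comparison shares the KO_4OI libraries with the one above and is not independent of it. Cyc1 (-1.09), Atp5g3 (-0.98) and Uqcrfs1 (-0.93) were among the largest falls, each with an adjusted p of 0.000456 or less. Genes called against KO_CTR but not against WT_CTR were Atp5g2, Atp5h, Atp5mpl, Cox6a2, Cox6b2, Cox6c and Cox7a2l.

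Within KO_CTR replicate 2 was the highest for 36 of 48 genes, and for 44.5% of all genes tested, and replicate 1 the lowest for 35, and for 25.7% of all genes tested. The exceptions that were lowest in KO_CTR replicate 2 were Cycs, Sdha, Uqcc1, Uqcrc2, Atp5f1 and Atp5s. The summed level of the genes was 19990, 24285 and 22348 CPM in KO_CTR replicates 1, 2 and 3, and the summed osteoclast markers were 27396, 33791 and 28899 CPM in the same order. Replicate 2 was also the highest of KO_CTR for the summed macrophage markers (8344, 11624 and 9253 CPM), neutrophil markers (823, 1170 and 734 CPM) and B cell markers (96.2, 138 and 108 CPM). In KO_4OI replicate 3 was highest for 37 genes (44.2% of all genes tested), with sums of 13291, 12749 and 14124 CPM for the genes and 9857, 8939 and 11309 CPM for the osteoclast markers. In WT_CTR replicate 3 was highest for 32 genes (41.2% of all genes tested), at 19679, 20658 and 22281 CPM for the genes beside 24274, 25099 and 25616 CPM for the osteoclast markers. With 3 libraries in a group these orders are a description.

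Other genes that work with these complexes are given beside the 14.2% of all genes tested that fell. Of the 36 nuclear subunits of complex I, 29 fell (80.6%) and 0 rose, with a median of -0.55 and all 36 values negative. Of the 6 mitochondrially encoded genes for complexes III to V, 1 fell (16.7%), near the share of all genes. All 6 values were negative, with a median of -0.40. For 4 of the 6 the KO_4OI and KO_CTR libraries did not overlap. Of all genes tested, 19.6% lay wholly lower and 19.8% wholly higher. The gene that fell was mt-Cytb, the core of complex III, at 5520, 6020 and 7286 CPM in KO_CTR and 4263, 4494 and 4073 CPM in KO_4OI (-0.55 ± 0.14, adjusted p = 0.00824). mt-Co1, the catalytic subunit of complex IV, stood at 10764, 10700 and 14262 CPM and 10200, 11116 and 8214 CPM in these groups (-0.27 ± 0.16, adjusted p = 0.239), and the groups overlapped; its value was the least negative of the 6. Against WT_CTR the median of these 6 genes in KO_4OI was -0.06, with 4 values negative. The KO_4OI and WT_CTR libraries lay apart for 1 of the 6, beside 22.1% of all genes tested wholly lower and 19.8% wholly higher. Between KO_CTR and WT_CTR the median of the 6 was 0.30. The mitochondrially encoded genes have nuclear copies, so their counts are less certain. Among 13 genes of mitochondrial membranes, carriers and matrix, 7 fell (53.8%) and 0 rose, including the phosphate carrier Slc25a3 (-0.66), the ATP and ADP carriers Slc25a5 (-0.64) and Slc25a4 (-0.55) and the voltage-dependent channel Vdac1 (-0.54).

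Of 14 tested regulators of respiratory genes, 3 fell (21.4%, beside 14.2% of all genes tested) and 0 rose, with a median of 0.03, so the list as a whole lay near the background; the 3 are described as single genes. Ppargc1b, the coactivator PGC-1beta that is known in mouse osteoclasts for driving mitochondrial genes, stood at 36.7, 37.0 and 33.6 CPM in WT_CTR, 31.9, 36.0 and 25.9 CPM in KO_CTR and 11.2, 8.06 and 12.6 CPM in KO_4OI. The treated libraries were all far lower (-1.56 ± 0.19, adjusted p = 5.8e-05). Esrra, the oestrogen-related receptor alpha that pairs with such coactivators and binds the ERR motif, stood at 136, 141 and 156 CPM in WT_CTR, 143, 182 and 115 CPM in KO_CTR and 74.3, 60.8 and 90.9 CPM in KO_4OI (-0.96 ± 0.19, adjusted p = 0.00187). Perm1, a muscle regulator that acts with the same receptors, stood at 28.1, 16.7 and 20.6 CPM in KO_CTR and 11.8, 9.52 and 11.1 CPM in KO_4OI (-1.01 ± 0.21, adjusted p = 0.00313). Nrf1 (0.20, adjusted p = 0.331), Gabpa (0.21, 0.543), Yy1 (0.05, 0.826), the mitochondrial transcription factor Tfam (-0.11, 0.667) and Myc (0.22, 0.564) had no call. Ppargc1a had no more than 1 read in any library. Whether any of these bears on the levels of the respiratory genes was not tested.

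**Figure D5:**
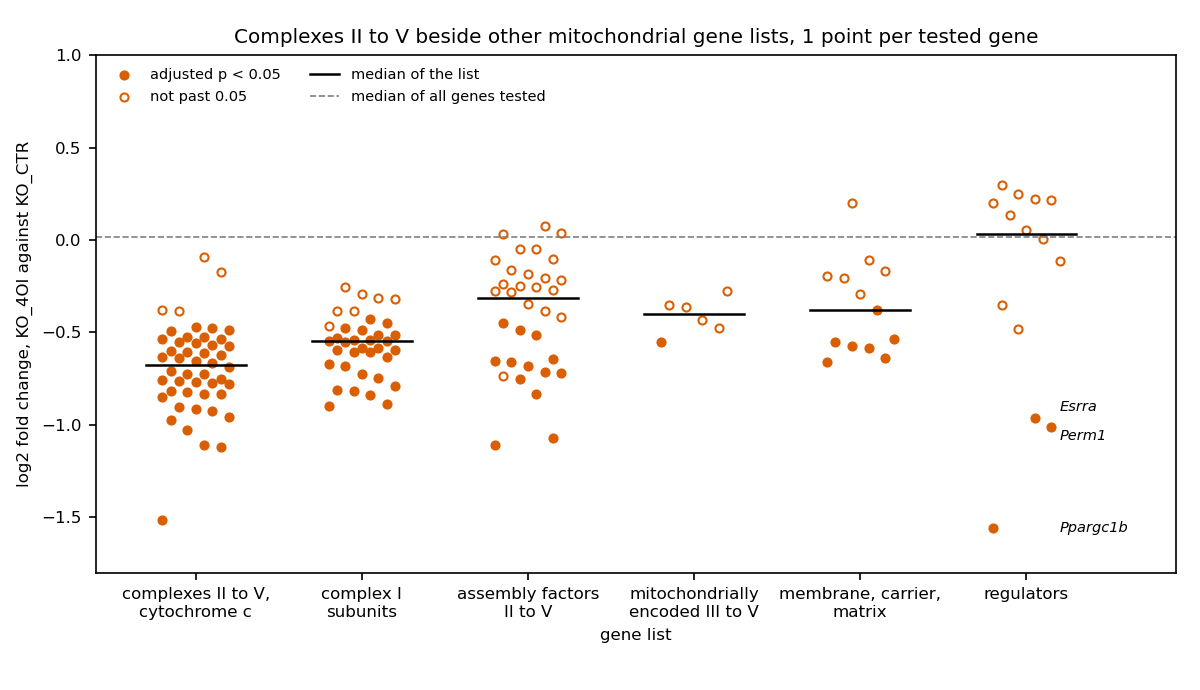
Log2 fold change for KO_4OI against KO_CTR (vertical axis) of each tested gene in 6 lists; filled points passed an adjusted p of 0.05, black lines are list medians and the dashed line is the median of all genes tested. The medians are -0.68 for complexes II to V with cytochrome c, -0.55 for complex I and 0.03 for the regulators, whose 3 called genes are named.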

How the data were processed

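RNA came from 9 samples of in vitro osteoclasts, and libraries were made with a NEBNext Ultra RNA kit, per the labels' protocols. The authors deposited a table of raw counts, unscaled whole numbers for each Ensembl gene ID in each library. The tools named in the submitters' processing notes are STAR, fastp and HTSeq 0.6.1, with build mm10; no source used here gives the other versions, the annotation release or the strand setting. Counts of near-identical copies and of genes that overlap on opposite strands are therefore less certain.

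Symbols came from a separate list of gene names, and 54409 of 54532 IDs had one. Coordinates, gene types and transcript lengths came from GENCODE vM21. Genes were kept with edgeR's filterByExpr (minimum count 10), leaving 14264. All 9 libraries were scaled with TMM and fitted together in edgeR 4.0.16 under R 4.3.3, by glmQLFit and glmQLFTest, on group alone. Tests were two-sided with Benjamini-Hochberg adjustment over all 14264 genes and a threshold of 0.05; a standard error is the absolute log2 fold change over the square root of the F statistic. Levels are CPM on TMM-adjusted library sizes, also divided by the length of the shortest principal transcript. Depth ran from 24830149 to 35143629 reads per library. Paralog shares were compared by exact permutation. Values in every library are given for up to 3 genes per complex with the smallest p and for paralog sets; all tested genes were eligible to be named. The genes, lists and tests were chosen with earlier results of these data known. Alternatives were other scalings and filters, DESeq2 1.42.0, limma-trend (limma 3.58.1, prior count 2), other sample sets and covariates, and other lengths for the shares. The fit was tested on simulated data.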

Additional observations from a re-analysis of the deposited data

How the results depend on the processing

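For KO_4OI against KO_CTR, 0 genes rose under any of the 19 alternatives, and the number that fell ran from 36 to 45, with medians of -0.65 to -0.76. Leaving out 1 library in turn gave 36 (without KO_4OI replicate 1) to 45. Leaving out the libraries with Xist reads gave 38, and DESeq2 and limma-trend gave 44 each. Of the 44 genes called, 34 kept their call under every alternative; the other 10 were Atp5d, Atp5f1, Atp5g2, Atp5k, Atp5mpl, Cox6a2, Cox6b2, Cox7b, Cycs and Uqcc1. Of these, 8 lost it without KO_4OI replicate 1, with adjusted p-values of 0.0523 to 0.121, 5 without KO_4OI replicate 2 and 3 without KO_CTR replicate 3. For KO_CTR against WT_CTR the count was 0 under every alternative, while the median moved from 0.09 to 0.22 without WT_CTR replicate 3 (range with 1 library left out 0.066 to 0.22). For KO_4OI against WT_CTR the count ran from 25 to 39 with 1 library left out and was 25 without the libraries with Xist reads; the median ran from -0.65 to -0.50, the latter without WT_CTR replicate 3. The cause was not tested.

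Replicate numbers gave no sign of pairing: correlations of the deviations of same-numbered libraries ran from -0.41 to 0.32. Those of differently numbered libraries ran from -0.41 to 0.54. The highest was that of WT_CTR replicate 3 with KO_CTR replicate 2, so some libraries of different groups deviated alike under other numbers. What they share was not tested. With the replicate block 42 genes fell for KO_4OI against KO_CTR, 0 were called for KO_CTR against WT_CTR and 35 fell for KO_4OI against WT_CTR.

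Among the paralog shares, the difference between KO_4OI and KO_CTR moved for Cox7a1 from -1.83 to -0.84 percentage points when length was left out. That of Atp5g1 changed from -0.24 to 0.41 without length, 0.03 with the union of exons and 0.11 with the longest principal transcript, the latter 2 lengths chosen after seeing the data. Shares of genes under a few CPM are limited by depth.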
